A study of Sus scrofa with 6 samples.

Results

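Loin muscle of Wei and Yorkshire pigs was examined for 10 genes of secreted proteins that regulate or assemble the extracellular matrix: SPP1, SPARC, POSTN, THBS1, THBS2, FN1, FBN1, LOX, PCOLCE and MFAP5. They were taken by gene symbol from a deposited table of 25322 genes, in which each of the 10 symbols had 1 row. RNA was sequenced from the longissimus dorsi, the long muscle of the back, in 3 Wei and 3 Yorkshire libraries. Wei is an indigenous Chinese breed and Yorkshire a Western breed kept for lean growth. Wei pigs had free access to commercial feed and water and were slaughtered at 90 kg, and Yorkshire pigs were kept in similar conditions, with no slaughter weight, age or sex given. Nothing in the labels ties each library to a separate animal, so p-values reflect the spread between these libraries, which may be partly technical. Groups follow the breed label, and every direction given here would turn if the labels were exchanged.

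Matricellular proteins are secreted into the matrix but bear little of its load. They bind cell surface receptors, growth factors and collagen, and are best known from development, wound repair and fibrosis. SPP1 (osteopontin), SPARC (osteonectin), POSTN (periostin) and the thrombospondins THBS1 and THBS2 belong to this class. Fibre assembly proteins build the scaffold itself: FN1 (fibronectin) is laid down early and templates other fibres, FBN1 (fibrillin) forms microfibrils that MFAP5 binds, PCOLCE speeds the removal of the C-terminal propeptide from procollagen, and LOX cross-links collagen and elastin. In muscle this connective tissue surrounds fibres and bundles and transmits force, and fibroblast-lineage cells make most of it.

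Total gene counts ranged from 15285197 to 27096747 per library. Before any comparison, 3 libraries stood apart. Yorkshire replicate 3 had macrophage marker genes at a summed 194 CPM (read counts per unit of scaled library size), against 48.0 to 67.7 in the other 5 libraries. Wei replicate 2 had 6901 counts in Y-linked genes, against at most 14 in each other library. It thus held male tissue, which the others lacked, and is not a technical repeat of them. Wei replicate 1 had the lowest sum of skeletal muscle fibre markers, 95100 CPM, against 133300 to 171600 in the others. Much of that gap was ACTA1, at 34100 CPM there and 66910 to 92750 CPM in the others. CKM, NEB, TNNC2, MYLPF and DMD were also lowest there, whereas MYH7 and TNNT1 were highest there. The mean log2 CPM of the fibre markers was 11.87 there, against 12.03 to 12.29 in the others. These markers were abundant in every library, as the tissue label requires.

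SPP1 and SPARC were lower in Wei muscle, by 4.80-fold and 2.43-fold, and no member was higher. Across 13209 tested genes (quasi-likelihood test of edgeR, Benjamini-Hochberg adjustment, threshold 0.05), each passed by a narrow margin. All 10 members passed the filter on low counts, so the count was 2 lower and 0 higher of 10 tested. Over all tested genes, 5.08% passed in either direction and 2.35% passed as lower in Wei. At a looser adjusted p of 0.1, 4 members passed as lower, and 1469 of the 13209 tested genes passed in either direction. POSTN and PCOLCE were the added members, with adjusted p of 0.0900 and 0.0962. The fitted change was negative for 9 of 10 members, against 52.2% of all tested genes, and the exception was THBS1. The median log2 fold change of the members was -0.77, against -0.02 for all tested genes. For 4 members (SPP1, SPARC, POSTN and PCOLCE) each Wei value lay below each Yorkshire value, a pattern found in 15.3% of all tested genes. No member had the reverse pattern, which 14.3% of tested genes had. Fewer matrix-producing cells and less RNA per cell cannot be told apart in such bulk tissue.

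**Figure D1:**
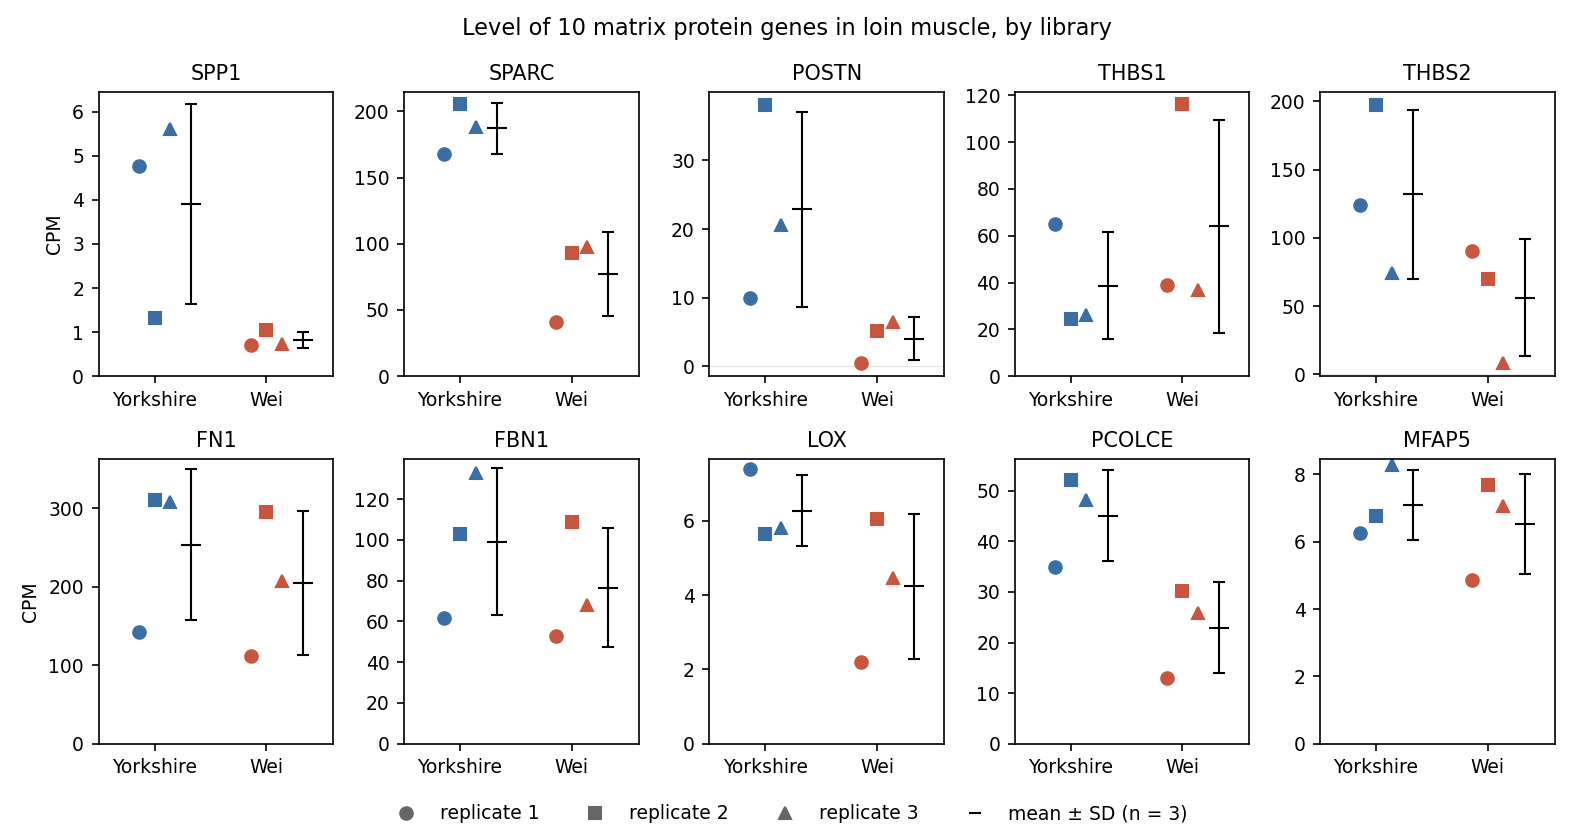
Scaled CPM (linear axes from 0, 1 panel per gene) of the 10 members in 3 Yorkshire (blue) and 3 Wei (red) libraries, with the marker shape giving the replicate and the bar the mean ± SD. Wei and Yorkshire points are separate for SPP1, SPARC, POSTN and PCOLCE and overlap for the other 6, and Wei replicate 1 is the lowest point in 8 panels.

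Among the matricellular genes, SPP1 (ENSSSCG00000009216, chromosome 8, 140307938 to 140315415 in Sscrofa10.2) encodes osteopontin, a phosphoprotein ligand of integrins and CD44 made by macrophages, osteoblasts and injured muscle. Its level was 4.77, 1.33 and 5.61 CPM in Yorkshire replicates 1 to 3 and 0.710, 1.04 and 0.734 CPM in Wei replicates 1 to 3. The Wei libraries lay close together, whereas Yorkshire replicate 2 lay far below the other Yorkshire libraries and just above the highest Wei value. Yorkshire replicate 2 had 24 counts, for an exact 95% Poisson interval of 0.851 to 1.98 CPM, and Wei replicate 2 had 16, for 0.595 to 1.69 CPM. These intervals overlap, so at this depth the order of those libraries is not resolved. In the fit, SPP1 had a log2 fold change of -2.26 ± 0.52 (SE; edgeR quasi-likelihood adjusted p = 0.0468). SPP1 was the least expressed member by read count, with 12 to 154 counts per library.

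SPARC (ENSSSCG00000017083), a collagen-binding glycoprotein of remodelling tissue, lies on the unplaced scaffold GL894053.2, 48146 to 60885. It had 168, 206 and 188 CPM in Yorkshire replicates 1 to 3 and 40.9, 92.8 and 97.9 CPM in Wei replicates 1 to 3. All Wei values lay below all Yorkshire values, and Wei replicate 1 lay below the other Wei libraries. The means were 187 ± 19.1 CPM (SD, n = 3) in Yorkshire and 77.2 ± 31.6 CPM in Wei. In log2 terms the fitted change was -1.28 ± 0.30 (SE; edgeR quasi-likelihood adjusted p = 0.0468), with a 95% interval of -1.95 to -0.60.

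The table holds a second gene model that a separate list of gene names calls SPARC. This model, ENSSSCG00000017082 on chromosome 16 (77576865 to 77582777), has no symbol in the deposited table. It had 77.5, 85.0 and 86.1 CPM in Yorkshire and 18.9, 50.7 and 47.6 CPM in Wei. The separation of breeds and the low Wei replicate 1 recur in it. Its counts were between 0.412 and 0.546 times those of the scaffold model in every library. Its log2 fold change was -1.08 ± 0.32 (edgeR adjusted p = 0.0880), so it missed the threshold. With both models summed, an alternative added after seeing the data, SPARC had a log2 fold change of -1.22 and an adjusted p of 0.0575 and was no longer called. Both models come from the same libraries and are not independent measurements.

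POSTN (ENSSSCG00000009361, chromosome 11, 13198182 to 13233797) encodes periostin, which binds collagen and integrins and is induced by TGF-beta. It had 9.93, 38.1 and 20.7 CPM in Yorkshire and 0.414, 5.14 and 6.41 CPM in Wei. The breeds did not overlap, but each was widely spread, with a 3.84-fold range within Yorkshire and a 15.5-fold range within Wei. Wei replicate 1 had 7 counts, for an exact 95% Poisson interval of 0.167 to 0.853 CPM, so its distance from the other Wei libraries exceeds counting error. The fitted change was the most negative of the members, -2.51 ± 0.74 on the log2 scale, with a 95% interval of -4.20 to -0.81. It missed the threshold in edgeR's test (adjusted p = 0.0900).

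The thrombospondins bind CD36, CD47 and latent TGF-beta or proteases in the matrix, and both restrain vessel growth. THBS1 (ENSSSCG00000004789, chromosome 1, 146905998 to 146923333) had 65.0, 24.6 and 26.2 CPM in Yorkshire and 38.9, 116 and 36.7 CPM in Wei. A single library stood high in each breed, Yorkshire replicate 1 and Wei replicate 2, and the breeds overlapped. The log2 fold change was 0.73 ± 0.52 (edgeR adjusted p = 0.431), and without Wei replicate 2 it was -0.02. THBS2 (ENSSSCG00000004012, chromosome 1, 1590789 to 1616464) had 124, 197 and 74.1 CPM in Yorkshire and 90.2, 70.1 and 8.17 CPM in Wei. Wei replicate 3 lay far below the other 5 libraries, and the remaining Wei values fell within or near the Yorkshire range. The log2 fold change was -1.23 ± 0.70 (edgeR adjusted p = 0.328), with a 95% interval of -2.84 to 0.37, and ranged from -1.75 without Wei replicate 1 to -0.71 without Wei replicate 3.

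Per unit of transcript length, the balance of the thrombospondins differed widely between libraries. The ratio of THBS2 to THBS1 in the deposited FPKM values (fragment counts scaled by transcript length and library size) was 2.29, 9.65 and 3.39 in Yorkshire and 2.78, 0.723 and 0.267 in Wei. THBS2 exceeded THBS1 in every Yorkshire library and in Wei replicate 1, and THBS1 exceeded THBS2 in the other Wei libraries. The breeds overlapped in this ratio.

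Of the fibre assembly genes, FN1 (ENSSSCG00000016174, chromosome 15, 130357873 to 130430503) had 142, 311 and 308 CPM in Yorkshire and 112, 295 and 207 CPM in Wei. Replicate 1 was the lowest library in either breed, and the ranges largely overlapped. Its log2 fold change was -0.31 ± 0.38 (edgeR adjusted p = 0.664), with a 95% interval of -1.18 to 0.56, and lay between -0.66 without Wei replicate 2 and -0.0083 without Wei replicate 1. FBN1 (ENSSSCG00000004658, chromosome 1, 137103320 to 137303566) had 61.6, 103 and 133 CPM in Yorkshire and 52.7, 109 and 68.1 CPM in Wei. As with FN1, replicate 1 was lowest in each breed. The log2 fold change of FBN1 was -0.37 ± 0.32 (edgeR adjusted p = 0.520), with an interval of -1.11 to 0.37. It was -0.71 without Wei replicate 2, -0.16 without Wei replicate 1 and -0.10 without Yorkshire replicate 3.

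MFAP5 (ENSSSCG00000000666, chromosome 5, 65575791 to 65589682), is a small glycoprotein of microfibrils. It had 6.25, 6.75 and 8.27 CPM in Yorkshire and 4.85, 7.67 and 7.05 CPM in Wei. The breeds overlapped, and the log2 fold change was -0.12 ± 0.22 (edgeR adjusted p = 0.777). The 95% interval of -0.62 to 0.38 excludes a change as large as that fitted for SPARC, and the difference between these genes was not itself tested. The sign turned to 0.06 without Wei replicate 1 and to 0.01 without Yorkshire replicate 3.

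PCOLCE and LOX act on collagen after its secretion. PCOLCE (ENSSSCG00000027466, chromosome 3, 7918398 to 7923583) had 34.9, 52.1 and 48.3 CPM in Yorkshire and 12.9, 30.2 and 25.7 CPM in Wei. Its breeds did not overlap, with Yorkshire replicate 1 the nearest to the Wei libraries. A log2 fold change of -0.97 ± 0.30 missed the threshold in edgeR's test (adjusted p = 0.0962), whereas DESeq2 called it (adjusted p = 0.0193). LOX (ENSSSCG00000014232, chromosome 2, 130891092 to 130900428) had 7.39, 5.64 and 5.79 CPM in Yorkshire and 2.19, 6.05 and 4.45 CPM in Wei. Wei replicate 2 lay among the Yorkshire libraries. The log2 fold change of LOX was -0.57 ± 0.33 (edgeR adjusted p = 0.333), with an interval of -1.33 to 0.18, and was -0.90 without Wei replicate 2 and -0.26 without Wei replicate 1.

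**Figure D2:**
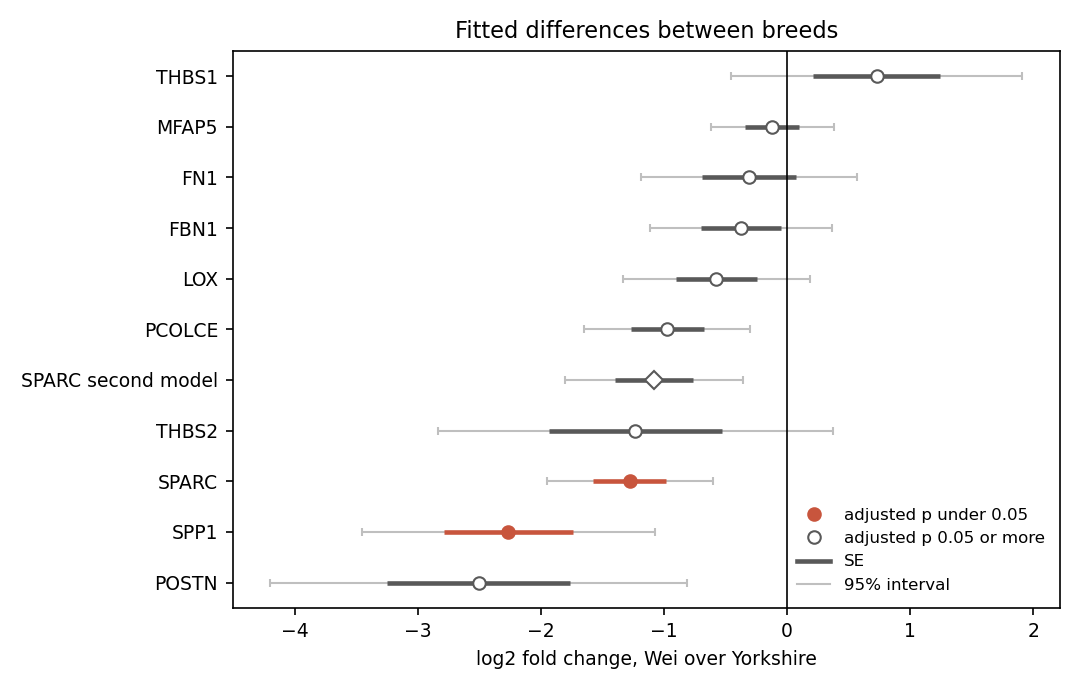
Fitted log2 fold change (Wei over Yorkshire) of each member and of the second SPARC gene model, with the SE as a thick bar and the 95% interval as a thin one. SPARC at -1.28 and SPP1 at -2.26 are filled as passing an adjusted p of 0.05, POSTN at -2.51 has the widest interval, and THBS1 at 0.73 is the sole member right of 0.

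SPARC was by far the most abundant member per unit length. Its mean over 6 libraries was 119 FPKM, followed by FN1 at 28.2, PCOLCE at 21.6, MFAP5 at 19.5, THBS2 at 16.7 and FBN1 at 12.0 FPKM. THBS1 followed at 7.41, LOX at 3.15, POSTN at 2.59 and SPP1 at 1.67 FPKM. Within a breed SPARC stood at 170 ± 24.3 FPKM (SD, n = 3) in Yorkshire and 67.3 ± 23.0 FPKM in Wei, above every other member in each library. Below SPARC, each pair of neighbours in this order had overlapping FPKM ranges over the libraries. THBS1 nevertheless exceeded LOX within every library. The other neighbours below SPARC changed places between libraries, so their order is not fixed by these data. Relative to FN1, SPARC was 8.65, 4.86 and 4.48 times as abundant per unit length in Yorkshire and 2.68, 2.31 and 3.46 times in Wei. POSTN was at 0.109, 0.191 and 0.104 of FN1 in Yorkshire and 0.00576, 0.0271 and 0.0481 in Wei. Neither ratio overlapped between the breeds, and the ratios were not tested.

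Much of the spread among Wei libraries was shared by the members. Wei replicate 1 was the lowest of the 6 libraries for 8 of 10 members, all but THBS1 and THBS2, against 19.4% of all tested genes. The mean of the members' log2 CPM, each less its own mean over the libraries, was 0.36, 0.55 and 0.57 in Yorkshire and -1.06, 0.14 and -0.54 in Wei. Wei replicate 2 thus lay nearest to Yorkshire. Within Yorkshire, replicate 1 was the lowest library for 6 members (SPARC, POSTN, FN1, FBN1, PCOLCE and MFAP5), against 32.7% of tested genes. Without Wei replicate 1 the median log2 fold change of the members was -0.47 in place of -0.77.

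Markers of fibroblasts, the main makers of this matrix, moved partly with the members. Of 13 listed markers 11 were in the table, TCF21 at or near 0 in each library. Their summed level was 505, 733 and 678 CPM in Yorkshire and 351, 602 and 538 CPM in Wei, with overlapping breeds and the lowest value of each breed in its replicate 1. DCN was the largest part of each sum, at 222 to 333 CPM in Yorkshire and 185 to 312 CPM in Wei (log2 fold change -0.14 ± 0.23). The mean log2 CPM of the tested markers was 4.971, 5.435 and 5.401 in Yorkshire and 4.302, 4.999 and 4.939 in Wei, with a narrow overlap. Of 10 tested, 9 had a negative change, with a median log2 fold change of -0.43. DPT (dermatopontin), a matrix protein itself, was the 1 called, at -1.29 ± 0.21 (edgeR adjusted p = 0.0189), where 2.35% of all tested genes were called lower. Members were also measured against the mean log2 level of the tested fibroblast markers in the same library. SPARC, POSTN and PCOLCE, separate between breeds before this scaling, were separate after it too. SPARC stood 2.42, 2.25 and 2.16 log2 units above it in Yorkshire and 1.06, 1.54 and 1.68 in Wei. POSTN stood between -1.65 and -0.18 in Yorkshire and between -5.27 and -2.24 in Wei, and PCOLCE between 0.16 and 0.27 and between -0.60 and -0.08. For SPP1, THBS1, THBS2, FN1, FBN1 and LOX the breeds overlapped on this scale, and MFAP5 was higher in each Wei library than in each Yorkshire library, with means 0.39 apart. These relative values were computed after the data were seen and carry no test. How many of all tested genes are separate on this scale was not counted.

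Macrophages are another source of SPP1. Of 15 listed macrophage markers 14 were in the table and 12 tested, with 0 called in edgeR's test and a median log2 fold change of -0.59. Their summed level was 48.0, 58.8 and 194 CPM in Yorkshire and 54.1, 67.7 and 59.6 CPM in Wei, with CD163 and MARCO at or near 0. Yorkshire replicate 3, the library highest in these markers, was also highest in SPP1, but Yorkshire replicate 1 had 4.77 CPM of SPP1 with the lowest marker sum. Relative to the mean log2 level of the macrophage markers, SPP1 stood at 0.80, -1.29 and -0.87 in Yorkshire and -1.90, -1.93 and -2.18 in Wei, without overlap. How many of all tested genes are separate on that scale was not counted. The part of macrophages in the SPP1 difference was not tested.

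Markers of other cell types moved unevenly, and their counts of calls stand beside 5.08% called over all tested genes. Lymphocyte markers, like those of macrophages, peaked in Yorkshire replicate 3: their sum was 10.6, 11.6 and 39.5 CPM in Yorkshire and 13.1, 10.01 and 13.5 CPM in Wei. JCHAIN, whose change was positive (0.50), was the largest part of the Wei sums, at 4.7 to 9.6 CPM. The mean log2 CPM of the tested lymphocyte markers was 0.26, 0.31 and 2.03 in Yorkshire and -0.02, -0.05 and -0.33 in Wei, without overlap. Of 7 tested lymphocyte markers edgeR called 0, with 6 negative changes and a median of -1.60 on the log2 scale, and the B cell markers CD79A, CD79B and MS4A1 stayed under 1 CPM in each library. Smooth muscle and pericyte markers had 1 of 10 called, CSPG4, a proteoglycan of pericytes, at -0.97 ± 0.22 (edgeR adjusted p = 0.0453). Their median was -0.46, with 6 negative changes, and their sum overlapped, at 5177 to 7587 CPM in Yorkshire and 5800 to 8259 CPM in Wei. DES made up most of each sum, at 4897 to 7205 CPM in Yorkshire and 5555 to 8058 CPM in Wei. The sums thus say little about the other markers. The mean log2 CPM of the tested markers overlapped too, at 5.235 to 5.631 in Yorkshire and 4.804 to 5.699 in Wei. In the tendon and bone list 3 of 9 markers in the table were tested, with 0 called by edgeR, 3 negative changes and a median of -0.36. Their sum was 27.5 to 32.1 CPM in Yorkshire and 15.8 to 30.4 CPM in Wei, with IBSP at 0 counts in each library. Satellite cell markers had 0 of 4 called and a median of -0.32, and endothelial markers had 0 of 11 called and a median of -0.02. Adipocyte markers summed to 276 to 326 CPM in Yorkshire and 451 to 477 CPM in Wei. PLIN4, a lipid droplet protein, made up most of each sum, at 249.5 to 308 CPM in Yorkshire and 408 to 456 CPM in Wei. It was the 1 called of 6, higher in Wei (0.70 ± 0.14 on the log2 scale, edgeR adjusted p = 0.0336). The list had 4 negative changes and a median of -0.04, so the gap in its sum is that of PLIN4. Skeletal muscle fibre markers had 0 of 10 called and a median of -0.08. The part of cell composition in the member differences was not tested.

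**Figure D3:**
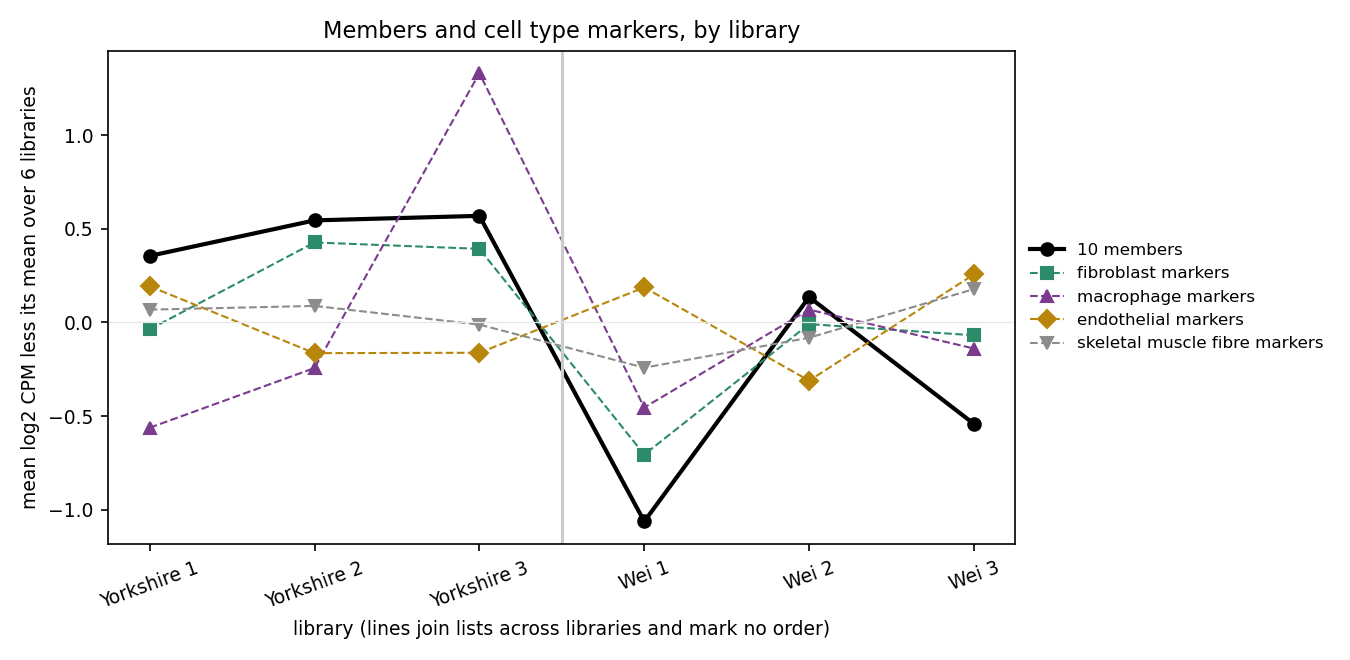
Mean log2 CPM of the 10 members and of the tested markers of 4 cell types, each less its mean over the 6 libraries, with libraries on the horizontal axis. The members fall to -1.06 in Wei replicate 1, where fibroblast markers are also at their lowest, and macrophage markers peak in Yorkshire replicate 3.

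Both calls were fragile to single libraries. SPP1 passed edgeR's test in 1 of 6 fits that left out a library, the fit without Yorkshire replicate 2, and its adjusted p ranged from 0.0246 to 0.124. SPARC also passed in 1 of 6, the fit without Wei replicate 1, with adjusted p from 0.0316 to 0.146. The direction held for both, with log2 fold changes of -2.66 to -1.91 for SPP1 and -1.49 to -0.97 for SPARC, as is nearly fixed when the groups do not overlap. Without Yorkshire replicate 3, the library rich in macrophage markers, the fold changes were -1.91 for SPP1 (adjusted p = 0.120) and -1.27 for SPARC (0.109) in edgeR. Without Wei replicate 2, the library with Y-linked counts, they were -2.44 (0.0813) and -1.42 (0.0718). With all 6 libraries in limma voom, SPP1 missed the threshold (adjusted p = 0.114).

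**Figure D4:**
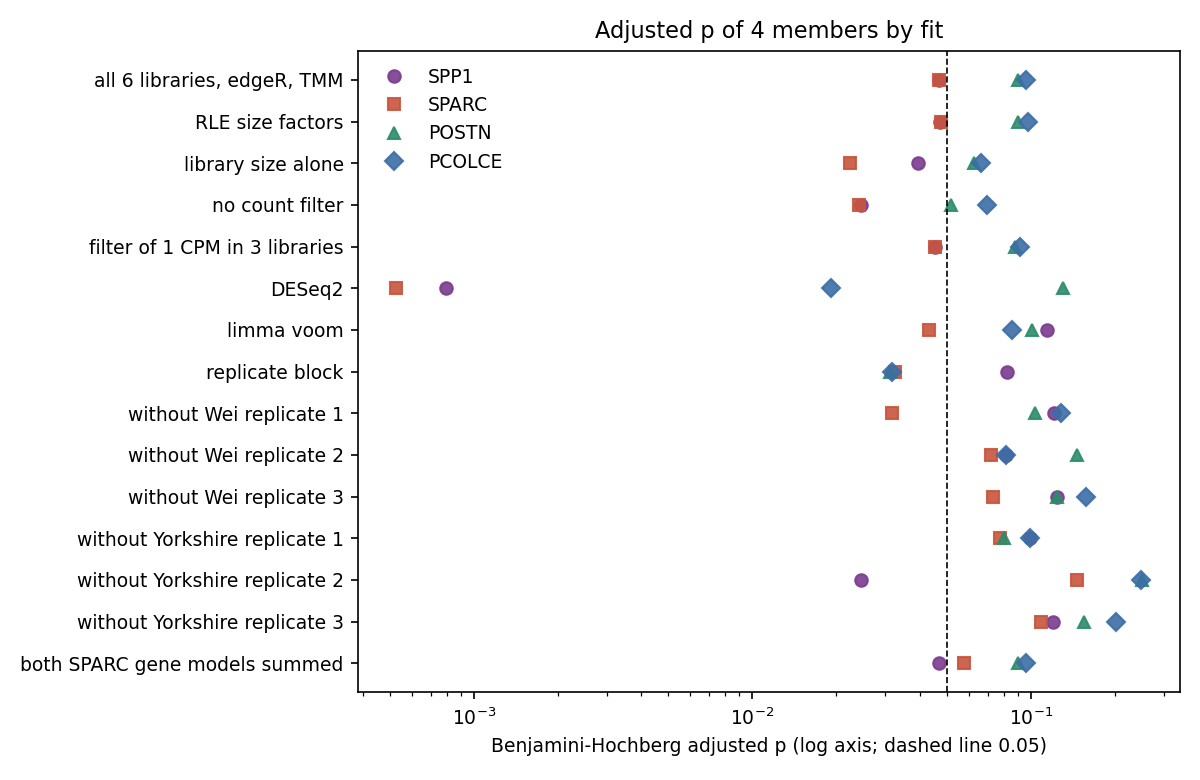
Benjamini-Hochberg adjusted p (horizontal log axis, dashed line at 0.05) of the 4 members whose breeds do not overlap, in the fit on all 6 libraries and in each alternative. SPP1 and SPARC sit at 0.0468 in the fit on all libraries and cross to the right of the line in 5 of the 6 fits that leave out a library.

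The wider matrix genes leaned the same way with few calls. Of 88 related genes tested in 6 lists, 7 were lower in Wei and 1 was higher, 75 had a negative change, and the median log2 fold change was -0.40. Over all tested genes 2.35% were called lower, 52.2% had a negative change, and the median was -0.02. The breeds did not overlap for 29 related genes that were lower and 3 that were higher, patterns found in 15.3% and 14.3% of all tested genes. These lists were drawn up with earlier results of these data known.

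Other matricellular genes had 1 of 13 called, THBS4, a thrombospondin of muscle and tendon, where 2.35% of all tested genes were called lower. It had 46.2, 40.7 and 48.2 CPM in Yorkshire and 32.2, 28.7 and 28.4 CPM in Wei, and fell by 0.60 ± 0.13 on the log2 scale (edgeR adjusted p = 0.0375). Unlike THBS1 and THBS2, THBS4 varied little within each breed. The CCN family genes CTGF (-0.21 ± 0.59), CYR61 (0.31 ± 0.68) and NOV (0.08 ± 0.25), all secreted integrin ligands, and TNC (-0.36 ± 0.36), a tenascin, did not pass.

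Among elastic fibre and microfibril genes 1 of 19 was called, near the 2.35% of all tested genes called lower. This was FBN3, a fibrillin known mainly from development. It was lower in Wei, with a log2 fold change of -2.89 ± 0.53 (edgeR adjusted p = 0.0283). Its level was 1.77 ± 0.39 CPM (SD, n = 3) in Yorkshire and 0.232 ± 0.193 CPM in Wei. The Wei libraries had 0.0592, 0.195 and 0.440 CPM, so the size of this change rests on very few reads. FBN3 is a near relative of FBN1, whose breeds overlapped, and reads of such paralogs could be split. Elastin, ELN, had a log2 fold change of -0.45 ± 0.28 and did not pass, and 17 of 19 genes had a negative change.

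Enzymes that process and cross-link collagen had 2 of 18 called, both lower in Wei, as were 2.35% of all tested genes. The breeds did not overlap for 9, all lower in Wei, a pattern of 15.3% of all tested genes. ADAMTS2, which removes the N-terminal propeptide of procollagen, had 14.7, 17.8 and 22.4 CPM in Yorkshire and 4.56, 7.02 and 5.63 CPM in Wei. Its log2 fold change was -1.68 ± 0.22 (edgeR adjusted p = 0.0109). P4HA1, a subunit of prolyl 4-hydroxylase, which stabilises the collagen helix, had 79.7, 84.1 and 78.6 CPM in Yorkshire and 46.9, 45.3 and 39.3 CPM in Wei, a log2 fold change of -0.88 ± 0.12 (edgeR adjusted p = 0.0116). Both passed in 5 of 6 fits that left out a library and missed without Yorkshire replicate 2 (adjusted p = 0.0511 for ADAMTS2 and 0.0590 for P4HA1, edgeR). BMP1, the C-proteinase that PCOLCE enhances, had a log2 fold change of -0.15 ± 0.24, and PCOLCE2, the relative of PCOLCE, had -0.10 ± 0.30, and neither passed.

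The fibrillar collagens had the most negative median of the 6 lists, -1.23 over 7 tested genes. Over all tested genes the median was -0.02 and 2.35% were called lower. COL5A1, a collagen that nucleates fibrils, was the 1 called, with 57.0, 93.4 and 93.7 CPM in Yorkshire and 24.2, 45.8 and 38.6 CPM in Wei (log2 fold change -1.17 ± 0.27; edgeR adjusted p = 0.0462). COL3A1 had -1.72 ± 0.45 (adjusted p = 0.0680) and COL1A2 -1.28 ± 0.37 (adjusted p = 0.0883) in the same edgeR fit. COL1A1 was not analysed here.

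Receptors for these proteins moved in both directions, with 2 of 18 called lower and 1 higher, where 5.08% of all tested genes were called. ITGA5, the fibronectin receptor subunit, had a log2 fold change of -0.68 ± 0.14 (edgeR adjusted p = 0.0363), and CD44, a receptor for osteopontin and hyaluronan, one of -0.93 ± 0.20 (adjusted p = 0.0392). ITGB8, an integrin subunit that activates latent TGF-beta, was higher in Wei at 1.75 ± 0.37 (edgeR adjusted p = 0.0364), with 17.6, 7.80 and 20.8 CPM in Wei and 5.71, 4.92 and 3.21 CPM in Yorkshire. Of 18 tested, 12 changes were negative and the median was -0.19. In the TGF-beta list edgeR called 0 of 13, with a median of -0.39. Its most abundant genes, SMAD4 (-0.04 ± 0.13) and SMAD3 (-0.74 ± 0.23), transduce the signal inside the cell. Apart from ADAMTS2 and P4HA1, each called gene of these lists missed the threshold in at least 5 of 6 fits that left out a library.

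**Figure D5:**
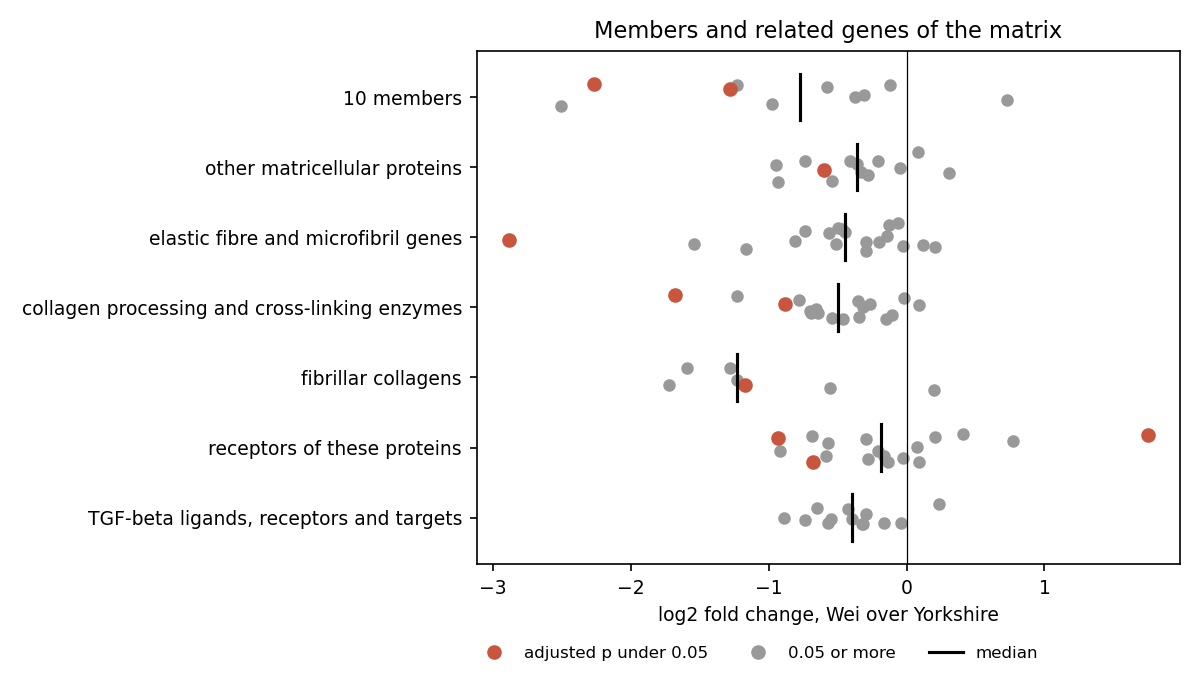
Log2 fold change (Wei over Yorkshire) of each tested gene, for the 10 members and 6 lists of related genes in rows, with red points for an adjusted p under 0.05 and a black bar at each median. All medians lie left of 0, from -0.19 for the receptors to -1.23 for the fibrillar collagens, and ITGB8 at 1.75 is the one called gene on the right.

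The genes whose profile over the 6 libraries was nearest to each called member were found among 10635 other tested genes with a symbol, by the root mean square difference of centred log2 CPM. For SPARC they were its own second gene model (0.12), C1QTNF3 (0.17), a secreted C1q-related protein, and COL1A2 (0.18). COL1A2 had 298, 474 and 425 CPM in Yorkshire and 74.2, 229 and 190 CPM in Wei, the same low Wei replicate 1 as SPARC. For SPP1 the nearest were PADI2 (0.23), which converts arginine to citrulline in proteins, MEGF10 (0.44), a receptor of satellite cells and of cell engulfment, and PMAIP1 (0.47), an apoptosis gene. PADI2 had 3.36, 0.664 and 2.77 CPM in Yorkshire, with the same low replicate 2 as SPP1, and 0.532, 0.715 and 0.440 CPM in Wei. These likenesses rest on 6 libraries and are descriptions.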

How the data were processed

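Tools named in the submitters' processing notes are TopHat2 2.0.9, CASAVA 1.7 and edgeR, with the build Sscrofa10.2. Which program counted reads, on which annotation and with which strand setting is not given in the sources used here, so reads of overlapping genes or paralogs cannot be separated. The authors deposited raw counts and FPKM values per library for 25322 genes, per the file headers. Deposited FPKM values were used only to compare levels between genes. Of 9160 genes without a symbol, 1774 took a symbol from a separate gene name table through their ID.

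The main test was edgeR 4.0.16 in R 4.3.3 (quasi-likelihood, breed as the only term, TMM scaling, filterByExpr at a minimum count of 10), with Benjamini-Hochberg adjustment over 13209 genes at 0.05. A positive fold change means higher in Wei. Its SE is its size over the square root of F, and 95% intervals use that SE. CPM are TMM-scaled, and log2 CPM add a prior count of 2. Intervals on counts cover counting error only. Alternatives were other scalings and filters, DESeq2 1.42.0, limma 3.58.1 voom, a replicate block, 2 stricter or looser thresholds and 6 fits without 1 library each.

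Members and lists were chosen with earlier results of these data known. The text names all members, up to 4 called genes of each related list by adjusted p (or its 2 most abundant), and 3 genes nearest in profile to each called member. CTGF, CYR61, NOV, TNC, ELN, BMP1, PCOLCE2, COL3A1, COL1A2, DPT, CSPG4 and PLIN4 were named after their values were seen. So were DCN, JCHAIN, DES and the fibre markers ACTA1, CKM, NEB, TNNC2, MYLPF, DMD, MYH7 and TNNT1. No sequences are shown.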

Additional observations from a re-analysis of the deposited data

How the results depend on the processing

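Of the 10 members, 2 were lower in Wei in edgeR under each of 3 scalings (TMM, RLE or none) and 3 filters on low counts, and 3 with DESeq2. The count was 1 with limma voom, where SPP1 missed (adjusted p = 0.114), and 1 with both SPARC gene models summed, which makes SPARC less extreme. It was 0 at an adjusted p under 0.01 and 4 under 0.1, and 0 to 1 with a library left out. No alternative called a member as higher. The members' median log2 fold change ranged from -1.06 to -0.47 over all alternatives, while the median over all tested genes shifted by 0.02 at most. With a library left out, THBS1 ranged from -0.0217 (without Wei replicate 2, the reverse sign) to 1.33. MFAP5 ranged from -0.242 to 0.0586, the latter without Wei replicate 1, and was also positive without Yorkshire replicate 3 (0.0097). The other 8 members kept a negative sign in all fits run, but FN1 came close to 0 (-0.0083) without Wei replicate 1, and FBN1, LOX and THBS2 shrank to -0.10 (without Yorkshire replicate 3), -0.26 (without Wei replicate 1) and -0.71 (without Wei replicate 3). Non-overlap held for 4 members under each scaling.

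Calls over all genes numbered 671, with 1258 in DESeq2, 52 at an adjusted p under 0.01, 1469 under 0.1 and 60 to 394 with a library left out, lowest without Yorkshire replicate 2. Related genes lower in Wei numbered 7, with 19 in DESeq2, 11 with the replicate block, 0 under 0.01, 17 under 0.1 and 0 to 3 with a library left out. The 1 related gene higher was lost (0) under 0.01 and with the replicate block, and 0 to 1 were called with a library left out. The cause of the differences between tools was not tested; a left-out library also means fewer samples per fit.

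The replicate block called 3 members (SPARC, POSTN and PCOLCE) and 477 genes, and SPP1 missed (edgeR adjusted p = 0.0822). Deviations of same-numbered libraries correlated across genes at 0.137, -0.00664 and 0.0222. With so few libraries, these values cannot show whether same-numbered libraries shared a batch, which was not tested. The labels tie them only by number, so they were not taken as pairs. SPP1, at 12 to 24 counts in 4 libraries, is the member most limited by depth.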
